A study of Mus musculus with 12 samples.

Results

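Egr1, Egr2, Egr3, Egr4, Nr4a1, Nr4a2, Nr4a3 and Npas4 are immediate early genes that encode transcription factors, and they were described here in cultured mouse cortical neurons with and without the DNA topoisomerase TOP1. The 8 genes were taken by symbol from a table of raw read counts per gene, which holds 23893 genes, and all 8 had counts in each of the 12 libraries. The study compared 4 groups of 3 cortical cultures from embryonic C57BL6/J mice. Per the study's methods, both genotypes were Top1 fl/fl neurons, which carry loxP sites around an exon of Top1, and they were transduced at 3 days in vitro (DIV 3) with lentivirus. The virus expressed the red fluorescent protein tdTomato alone (WT) or tdTomato with the CRE recombinase, which deletes Top1 (Top1 cKO), in both cases from the CaMKIIα promoter, which limits expression to neurons. Around 85 to 90% of the cells were transduced, so the Top1 cKO cultures also held cells without CRE. At DIV 15 the cultures received 300 nM topotecan (Topot), which traps TOP1 on the DNA strand it has cut, or vehicle (Veh, 0.003% DMSO), and RNA was harvested 3 days later. The groups are named by genotype and treatment (Top1 cKO-Topot, for example), and the question addressed is whether topotecan and Top1 deletion change these genes alone, together, or one only in the presence of the other. Whether the 3 cultures of a group came from separate litters is not given in the sources used here, so p-values refer to these cultures only.

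Immediate early genes are transcribed within minutes of synaptic activity, without new protein synthesis. Calcium that enters through NMDA receptors and voltage-gated channels activates kinases, which act on factors such as CREB and SRF that are already bound to DNA, and these switch the early genes on. The Egr proteins are zinc finger factors that bind a GC-rich site, the Nr4a proteins are nuclear receptors that act without a known ligand and bind the NBRE, and NPAS4 is a basic helix-loop-helix PAS factor that pairs with ARNT or ARNT2. Their targets include genes for synapse formation and plasticity.

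The 8 genes are short and lie on 8 different chromosomes. In the GENCODE vM1 annotation of NCBIM37, the assembly that mm9 names, they span from 2459 bases (Egr4) to 41295 bases (Nr4a3). Egr2 lies at chr10:66998223-67004936, Egr3 at chr14:70477252-70479964, Nr4a1 at chr15:101097277-101105223 and Nr4a3 at chr4:48058025-48099319, all on the plus strand. Egr4 at chr6:85461125-85463583, Nr4a2 at chr2:56959241-56976414 and Npas4 at chr19:4984355-4989971 are on the minus strand. No gene model on either strand overlaps 7 of the 8, and a predicted gene on the opposite strand overlaps 200 bases of Egr1 and has no row of its own in the count table.

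A RefSeq table of promoters on GRCm38.p6 had entries for 6 of the 8 genes (Egr2, Egr4, Nr4a1, Nr4a2, Nr4a3 and Npas4). The bases before their starts are shown because 5 of these 6 genes, all but Egr2, were called lower with topotecan in WT cells. Each stretch was placed on NCBIM37 by an exact and single match and holds no annotated exon base. That of Egr2 lies within its gene model, directly before the start of an exon. They are written 5′ to 3′ on the strand of the gene. Capitals mark TGACG or its reverse complement CGTCA, the half-site of the cAMP response element that CREB binds, and in Egr2 also the CArG box that SRF binds, which lies between its 2 half-sites.
Egr2 (chr10:67000367-67000616, plus strand, the longest of 3 overlapping windows before this exon): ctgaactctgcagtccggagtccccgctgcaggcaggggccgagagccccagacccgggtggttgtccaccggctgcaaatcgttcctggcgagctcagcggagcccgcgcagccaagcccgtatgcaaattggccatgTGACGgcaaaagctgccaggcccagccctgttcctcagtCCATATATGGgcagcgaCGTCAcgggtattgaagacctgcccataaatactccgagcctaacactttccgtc
Egr4 (chr6:85463584-85463833, minus strand): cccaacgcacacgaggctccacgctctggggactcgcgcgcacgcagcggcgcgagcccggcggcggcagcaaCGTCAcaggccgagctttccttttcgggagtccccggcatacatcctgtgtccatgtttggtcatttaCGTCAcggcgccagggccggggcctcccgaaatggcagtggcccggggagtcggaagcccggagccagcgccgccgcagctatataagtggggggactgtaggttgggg
Nr4a1 (chr15:101097027-101097276, plus strand): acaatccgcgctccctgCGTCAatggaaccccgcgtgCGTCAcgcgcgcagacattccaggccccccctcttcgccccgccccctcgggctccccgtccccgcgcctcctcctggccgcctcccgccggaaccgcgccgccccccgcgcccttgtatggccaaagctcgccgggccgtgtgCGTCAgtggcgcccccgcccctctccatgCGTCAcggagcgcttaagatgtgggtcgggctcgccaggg
Nr4a2 (chr2:56976415-56976664, minus strand): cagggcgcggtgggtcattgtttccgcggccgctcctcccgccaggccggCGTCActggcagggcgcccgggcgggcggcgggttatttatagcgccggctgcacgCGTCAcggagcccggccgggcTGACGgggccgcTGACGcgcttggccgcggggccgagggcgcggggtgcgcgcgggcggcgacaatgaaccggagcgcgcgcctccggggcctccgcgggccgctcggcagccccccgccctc
Nr4a3 (chr4:48057927-48058024, plus strand): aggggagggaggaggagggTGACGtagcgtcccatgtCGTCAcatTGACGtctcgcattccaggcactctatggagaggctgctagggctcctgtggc
Npas4 (chr19:4989972-4990221, minus strand): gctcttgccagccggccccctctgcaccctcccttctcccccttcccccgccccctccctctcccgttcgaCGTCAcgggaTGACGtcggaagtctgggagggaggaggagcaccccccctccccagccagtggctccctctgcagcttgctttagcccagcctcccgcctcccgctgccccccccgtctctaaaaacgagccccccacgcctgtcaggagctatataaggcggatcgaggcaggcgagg

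The 6 stretches hold 2 half-sites in Egr2, Egr4 and Npas4, 3 in Nr4a3 and 4 in Nr4a1 and Nr4a2. In windows of 250 bases before the start, at least 1 half-site on either strand was found in 8 of the 10 windows listed for these 6 genes, and in 17.8% of all 32851 windows of the table. At least 2 were found in the same 8 windows and in 3.9% of all windows. The 5 windows of Egr2 partly overlap, so the 10 windows are not separate observations. The full element TGACGTCA, which contains both half-sites, was in none of the 10 and in 1.55% of all windows. The CArG box was found only in windows of Egr2, 4 of its 5, against 1.47% of all windows. The EGR site GCGNGGGCG was in the windows of Nr4a1 and Nr4a2 and in 4.7% of all windows, the NBRE AAAGGTCA was in none of the 10 and in 1.34% of all, and TATAA was in 1 window each of Egr2, Egr4, Nr4a2 and Npas4 and in 22.8% of all. A match of these letters is a description of the sequence and does not show binding.

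The libraries held 1730164 to 4583777 counts over genes. Levels are given in CPM, the counts of a gene scaled to the size of its library. Top1 had 117 to 163 CPM with tdTomato alone and 27.1 to 44 CPM with CRE, which matched the genotype label of every library. Within each genotype the treatments overlapped in Top1, so the treatment labels were not checked this way. Library sizes were adjusted by the TMM method of edgeR. Changes are log2 fold changes from edgeR's quasi-likelihood test, which gives no standard error (SE). The SE was derived as the size of the log2 fold change divided by the square root of the test's F statistic. A gene was called when its p-value, with Benjamini-Hochberg adjustment across the 23893 genes, was below 0.01. Libraries that share a replicate number deviated from their group means in the same direction, so a second fit had the number as a block. Its values are given beside the calls and counts that it changes. The SEs of this fit can be small beside the spread of the 3 ratios within replicate numbers. For Egr1 with topotecan in Top1 cKO cells the SE was 0.0958, and the log2 ratios were 0.84, −0.13 and 0.54. Calls that rest on the block alone are therefore to be read with caution. All 11 neuronal markers examined had at least 1 CPM on average, summing to 6922 to 8822 CPM per library. Of the markers of microglia 3 of 8 and of endothelial and mural cells 3 of 6 reached that level, and each list summed to at most 20.2 and 43.4 CPM. Of the 8 oligodendrocyte lineage markers 6 averaged at least 1 CPM, and the list summed to 96.2 to 294 CPM. Mag, a myelin gene, was the 1 marker of this list at 0 in every library. The 8 astrocyte markers were all present, at 835 to 5571 CPM in sum.

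The basal levels of the 8 genes differed widely. Per kb of annotated exon, WT-Veh neurons held most of Egr1, a gene of chromosome 18 and the best studied activity marker of the family, at 73.1 ± 34.4 CPM per kb (SD, n = 3). It was followed by Nr4a1 at 36.3 ± 12.5, Egr3 at 36.3 ± 19.7 and Egr4 at 24.4 ± 2.69 CPM per kb. Npas4 at 12.3 ± 7.35, Nr4a2 at 7.44 ± 1.68 and Nr4a3 at 6.65 ± 3.61 CPM per kb were lower, and Egr2, better known for its part in myelination, was lowest at 2.12 ± 1.01 CPM per kb. Neighbors in this order differed by less than their SDs, except that Egr1 lay above Nr4a1 by slightly more than the larger SD, Egr4 above Npas4 and Nr4a3 above Egr2. Egr1 was highest and Egr2 lowest of the 8 in each of the 4 groups. Npas4 ranked 5 of 8 in WT-Veh and 7 of 8 in WT-Topot. Egr2 had 4 to 52 counts per library, the fewest of the 8, and Npas4 had 4 counts in its lowest library, so the values of these genes carry the widest counting error.

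**Figure D1:**
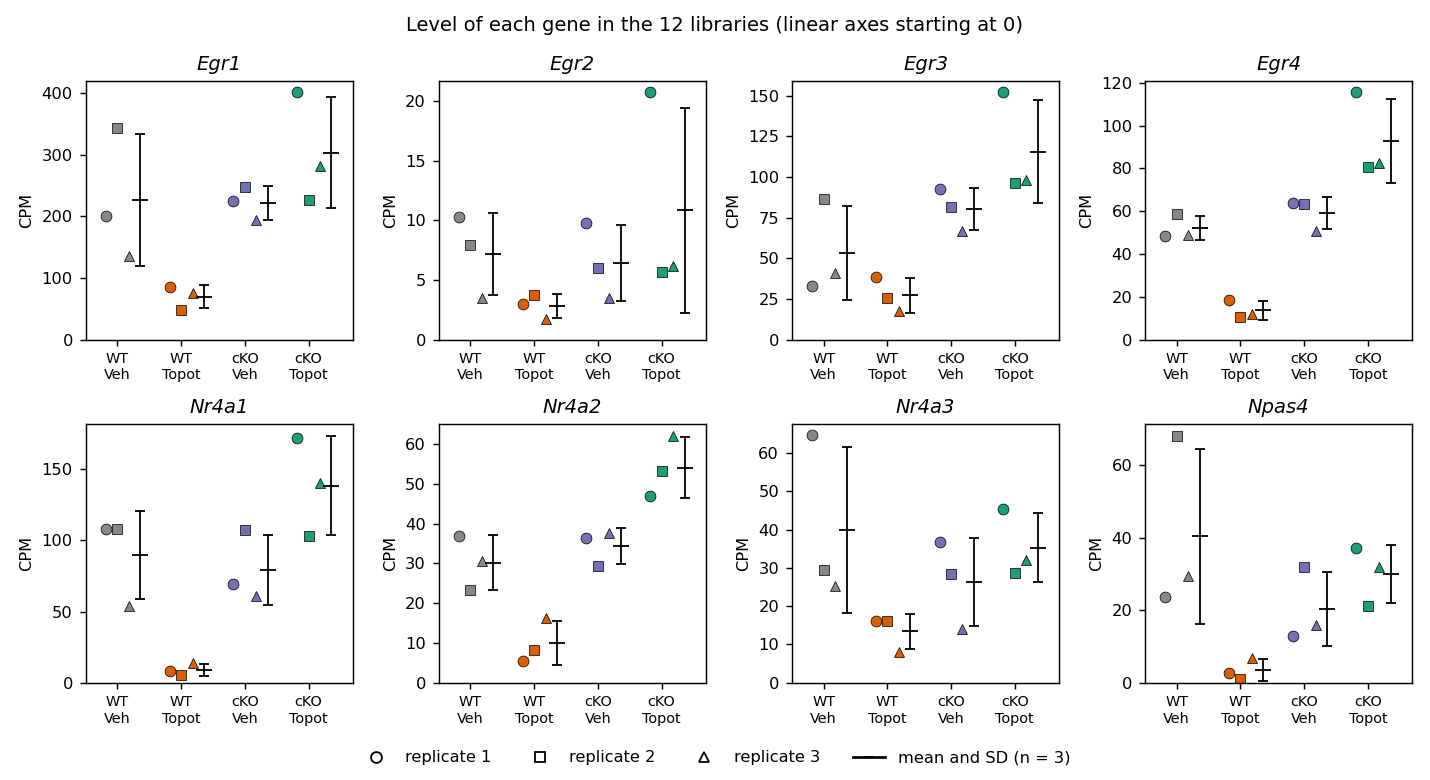
Level of each of the 8 genes in CPM (linear axis from 0) in the 12 libraries, by group, with a symbol for each replicate number and the mean and SD of 3 cultures beside them. The 3 WT-Topot libraries are below the 3 WT-Veh libraries for all but Egr2 and Egr3, and the Top1 cKO-Topot libraries are above the WT-Topot libraries for all 8 genes.

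Topotecan lowered most of the group in WT neurons. Compared to WT-Veh, WT-Topot cells had lower levels of 6 of the 8 genes (Egr1, Egr4, Nr4a1, Nr4a2, Nr4a3 and Npas4), and none was higher. The 8 genes together summed to 368 to 725 CPM per library in WT-Veh and to 118 to 177 CPM in WT-Topot. Of all genes, 2.04% were called lower and 0.682% higher in this comparison, and the median log2 fold change was −1.66 over the 8 genes and 0 over all genes.

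Npas4 fell most. It had 23.7, 67.9 and 29.4 CPM in WT-Veh replicates 1 to 3 and 2.68, 1.14 and 6.85 CPM in WT-Topot. The groups did not overlap, and even the highest topotecan library was far below the lowest vehicle library. Npas4 fell by 3.58 on the log2 scale (SE 0.492, edgeR adjusted p = 8.25e-05). Nr4a1, which encodes the receptor NUR77, had 108, 108 and 54.1 CPM in WT-Veh and 8.04, 5.15 and 13.7 CPM in WT-Topot. The groups lay far apart, and the gene fell by 3.37 on the log2 scale (SE 0.33, edgeR adjusted p = 1.87e-06), a 10.3-fold reduction.

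Nr4a2 and Nr4a3, the other 2 receptors of the family, fell less. Nr4a2, which encodes NURR1, a factor for dopamine neurons, had 36.9, 23.2 and 30.5 CPM in WT-Veh and 5.36, 8.3 and 16.3 CPM in WT-Topot. Nr4a3 had 64.7, 29.4 and 25.3 CPM in WT-Veh and 16.1, 16 and 8.14 CPM in WT-Topot. For neither gene did the groups overlap, and WT-Veh replicate 1 was the highest library of both. The changes were −1.62 (SE 0.349, edgeR adjusted p = 0.00696) for Nr4a2 and −1.56 (SE 0.341, edgeR adjusted p = 0.00794) for Nr4a3, on the log2 scale. Both calls are near the threshold. The call of Nr4a2 was lost without WT-Topot replicate 1 (edgeR adjusted p = 0.0167) or 2 (edgeR adjusted p = 0.025), and that of Nr4a3 without WT-Topot replicate 3 (edgeR adjusted p = 0.0247) or WT-Veh replicate 1 (edgeR adjusted p = 0.0654). A filter on low counts also ended both.

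Of the Egr genes, Egr1 had 200.4, 344 and 135 CPM in WT-Veh and 85.1, 48.1 and 75.8 CPM in WT-Topot. Egr4 had 48.6, 58.7 and 49 CPM in WT-Veh and 18.4, 10.3 and 12 CPM in WT-Topot. Neither gene had overlapping groups, and the vehicle libraries of Egr4 lay much closer together than those of Egr1. Egr1 fell by 1.70 on the log2 scale (SE 0.282, edgeR adjusted p = 6.35e-04). Egr4 fell by 1.93 on the log2 scale (SE 0.265, edgeR adjusted p = 8.11e-05).

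Egr2 and Egr3 did not pass the test. Egr3 had 32.8, 86.3 and 40.9 CPM in WT-Veh and 38.5, 25.5 and 17.6 CPM in WT-Topot. WT-Topot replicate 1 was above WT-Veh replicate 1, the only such reversal within a replicate number among the 8 genes. The log2 fold change of Egr3 was −0.96 (SE 0.329, edgeR adjusted p = 0.132). Egr2 had 10.2, 7.89 and 3.46 CPM in WT-Veh and 3.02, 3.72 and 1.71 CPM in WT-Topot, and its log2 fold change was −1.35 (SE 0.487, edgeR adjusted p = 0.162). Its ranges overlapped through WT-Veh replicate 3, although the ratio was negative in all 3 replicate numbers. With the replicate block Egr3 also passed, at −0.89 (edgeR adjusted p = 9.18e-04), which gave 7 of the 8 genes lower beside 5% of all genes, and Egr2 did not (edgeR adjusted p = 0.0221). Egr3 also passed without WT-Topot replicate 1, WT-Veh replicate 1 or WT-Veh replicate 3.

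The libraries of the 2 groups did not overlap for 6 of the 8 genes, and WT-Topot was below WT-Veh in all 3 replicate numbers for 7. Among the 13720 genes that averaged 1 CPM or more, WT-Topot was lower without overlap for 13.2% and lower in all 3 replicate numbers for 24.1%. Gene length also moves with this comparison. Of the genes of at most 50 kb, to which all 8 belong, 0.623% were called lower, compared to 15.2% of the genes over 100 kb.

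**Figure D2:**
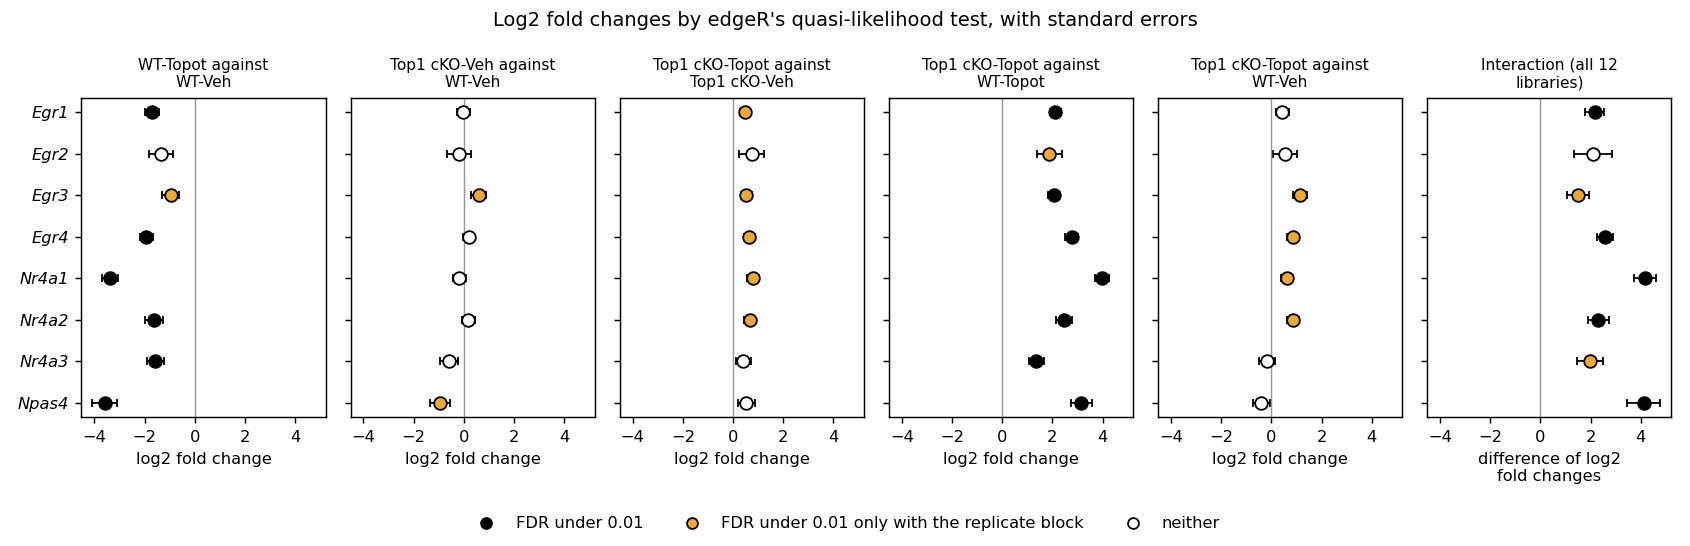
Log2 fold change of each of the 8 genes with its standard error in the 5 comparisons of 2 groups, and the difference of the topotecan effects between Top1 cKO and WT cells (right panel). Filled points passed an FDR of 0.01, orange points passed it only with the replicate block, and open points passed it in neither fit.

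Some markers of another cell type moved in the same comparison. The summed level of the 8 astrocyte markers was 2074 to 4424 CPM in WT-Veh and 835 to 1298 CPM in WT-Topot, and 3 of the 8 were called lower (median log2 fold change −1.45), or 5 with the block. The 3 called without it were Gfap, an intermediate filament of astrocytes (−2.54, SE 0.373), and the glutamate transporters Slc1a3 (−1.52, SE 0.265) and Slc1a2 (−1.39, SE 0.205), on the log2 scale. Aldh1l1 (−0.39, SE 0.573), S100b (0.0012, SE 0.546) and Sox9 (0.13, SE 0.311) were called in neither fit. Slc1a2 and Gfap had the largest means of these markers in WT-Veh, at 1530 and 665 CPM, so they weigh most in the sum. Of the 11 neuronal markers, 1 was called lower, Rbfox3, which encodes the nuclear antigen NeuN (−0.96, SE 0.18), and 0 were called higher. With the block 4 were lower, Rbfox3, Snap25 (−0.53), Nefl (−0.51) and Map2 (−0.42), and 3 were higher, the glutamate transporters Slc17a6 (1.08) and Slc17a7 (0.45) and the tubulin gene Tubb3 (0.45). Their summed level was 6922 to 8461 CPM in WT-Veh and 6974 to 7376 CPM in WT-Topot. The 8 interneuron markers summed to 793 to 1744 CPM in WT-Veh and 546 to 991 CPM in WT-Topot, with 0 of 8 called by edgeR and 4 lower and 1 higher at an unadjusted p below 0.05. With the block the same counts were called, with Npy (−1.39), Sst (−1.06), Gad1 (−0.98) and Gad2 (−0.94) lower and Dlx1 (0.83) higher. Of the 6 markers of progenitors 1 was called higher in WT-Topot in either fit, Nes (1.22, SE 0.223), and 0 lower. Sox2 (0.075, SE 0.203), Pax6 (0.45, SE 0.505) and Mki67 (−0.21, SE 0.887) were among those not called. Of the 8 oligodendrocyte lineage markers 0 were called. With the block 1 was lower, Mbp (−0.59), and 1 higher, Olig1 (1.38). The part of cell composition in the change of the 8 genes was not tested, and in such bulk libraries fewer expressing cells and less RNA per cell cannot be told apart.

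Top1 deletion alone moved none of the 8 genes past the threshold. In Top1 cKO-Veh cells 0 of the 8 genes were called against WT-Veh by edgeR's quasi-likelihood test, and the DESeq2 Wald test also called 0. At an unadjusted p below 0.05 there was 1, Npas4, which was lower, beside 1152 of all 23893 genes lower and 932 higher. With adjustment, 0.126% of all genes were called lower and 0.046% higher. The median log2 fold change of the 8 genes was −0.11. Of the cell type markers 0 were called without the block. At an unadjusted p below 0.05, 3 of the 8 microglia markers, a list of low counts, were lower. With the block 1 marker each of neurons, interneurons, astrocytes and the oligodendrocyte lineage was called higher, and 1 of microglia lower. The part of cell composition was not tested.

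Npas4 had 12.9, 32.1 and 16 CPM in Top1 cKO-Veh, against 23.7, 67.9 and 29.4 CPM in WT-Veh. The ranges overlapped, while within each replicate number the Top1 cKO-Veh library was lower, by 0.88, 1.08 and 0.87 on the log2 scale in size. The log2 fold change was −0.95 (SE 0.394, edgeR adjusted p = 0.458), and with the replicate block Npas4 was called lower at −0.97 (edgeR adjusted p = 1.34e-04). Egr3 had 92.3, 81.5 and 66.6 CPM in Top1 cKO-Veh. Only WT-Veh replicate 2, at 86.3 CPM, reached into that range. Within replicate numbers the log2 ratios were 1.49, −0.083 and 0.70, so replicate 2 did not rise. The log2 fold change of Egr3 was 0.59 (SE 0.3, edgeR adjusted p = 0.629), and with the replicate block it was called higher at 0.67 (edgeR adjusted p = 8.96e-04). The block thus gave 1 of 8 genes lower and 1 higher, where it called 2.95% of all genes lower and 2.6% higher.

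The other 6 genes were not called in either fit. Egr1 had 224, 248 and 193 CPM in Top1 cKO-Veh, within the range of WT-Veh. Its log2 fold change of −0.031 had a 95% interval, by the normal distribution, of −0.54 to 0.48. Egr4 had 63.7, 63.4 and 50.6 CPM, Nr4a1 69.6, 107 and 61.1 CPM and Nr4a2 36.4, 29.3 and 37.6 CPM. The intervals of these 3 genes reached from −0.22 to 0.60, from −0.71 to 0.35 and from −0.32 to 0.67. For comparison, topotecan in WT cells, measured against the same WT-Veh libraries, gave −1.70 for Egr1, −1.93 for Egr4, −3.37 for Nr4a1 and −1.62 for Nr4a2. Nr4a3 had 36.8, 28.4 and 14 CPM, with a log2 fold change of −0.60 (SE 0.365), and Egr2 had 9.78, 5.95 and 3.51 CPM, with one of −0.20 (SE 0.469). Their intervals, from −1.31 to 0.12 and from −1.12 to 0.72, are wide.

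In Top1 cKO cells no gene of the 8 was called lower with topotecan. All 8 had a positive log2 fold change in Top1 cKO-Topot against Top1 cKO-Veh, from 0.41 (Nr4a3) to 0.80 (Nr4a1), with a median of 0.60 where that of all genes was 0. None was called by edgeR's quasi-likelihood test or by the DESeq2 Wald test. At an unadjusted p below 0.05, 5 were higher, beside 404 of all 23893 genes higher and 627 lower. This comparison gave few calls at all, with 0.00837% of all genes lower and 0% higher. With the replicate block, which called 0.858% of all genes higher, 5 of the 8 were called higher (Egr1, Egr3, Egr4, Nr4a1 and Nr4a2).

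Nr4a1 had 172, 103 and 140.3 CPM in Top1 cKO-Topot, compared to 69.6, 107 and 61.1 CPM in Top1 cKO-Veh. Replicates 1 and 3 were higher than their vehicle partners, and replicate 2 was nearly level. Its log2 fold change was 0.80 (SE 0.233, edgeR adjusted p = 0.478), and 0.78 with the block (edgeR adjusted p = 3.52e-07). Egr4, with 116, 80.7 and 82.6 CPM, Egr3, with 152, 96.3 and 98.4 CPM, and Nr4a2, with 47, 53.1 and 62.1 CPM, were above Top1 cKO-Veh in all libraries. Their log2 fold changes with the block were 0.64 for Egr4 (edgeR adjusted p = 3.52e-04), 0.51 for Egr3 (edgeR adjusted p = 0.00287) and 0.67 for Nr4a2 (edgeR adjusted p = 0.0025). Egr1 had 402, 227 and 282 CPM in Top1 cKO-Topot, with replicate 2 below its vehicle partner. With the block its log2 fold change was 0.42 (edgeR adjusted p = 8.96e-04).

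The remaining 3 genes were called in neither fit. Npas4 had 37, 21.3 and 31.9 CPM, Nr4a3 45.4, 28.6 and 31.9 CPM and Egr2 20.7, 5.65 and 6.12 CPM in Top1 cKO-Topot. The value of Egr2 rested on replicate 1, without which its log2 fold change turned from 0.74 to −0.14. Top1 cKO-Topot was higher without overlap for 3 of the 8 genes (5.17% of the genes with at least 1 CPM) and higher in all 3 replicate numbers for 4 (18.5%). Replicate 2 was the lowest Top1 cKO-Topot library for 7 of the 8 genes, and replicate 1 was the highest for 7.

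**Figure D3:**
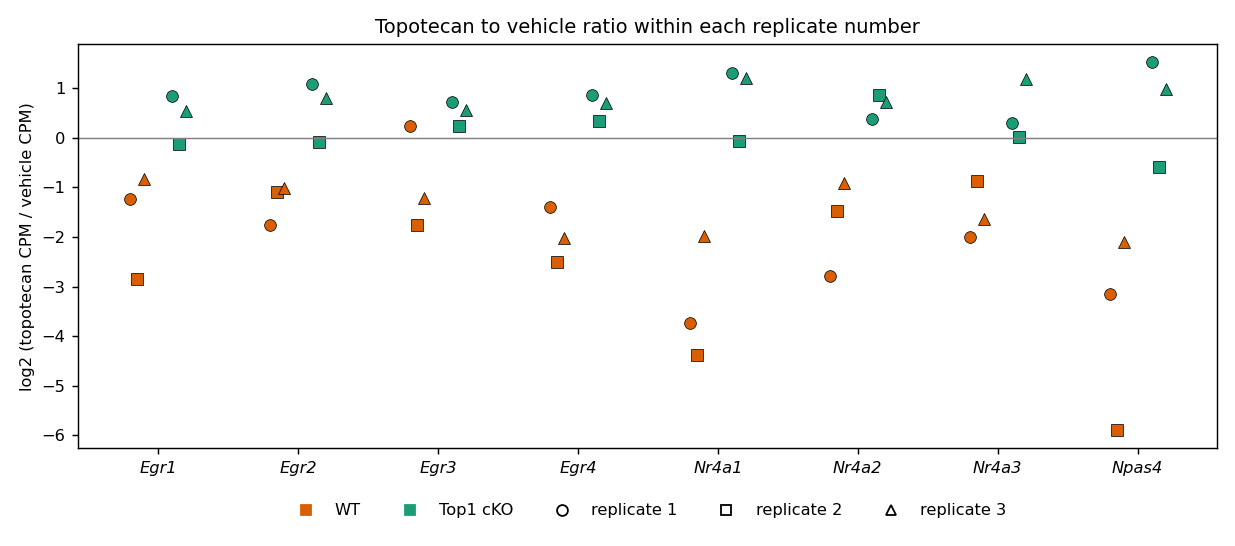
Log2 ratio of the topotecan to the vehicle library within each replicate number, for WT cells (orange) and Top1 cKO cells (green). All WT ratios but that of Egr3 in replicate 1 are below 0, and the Top1 cKO ratios lie between −0.59 and 1.52.

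The astrocyte markers were read in this comparison too. Their summed level was 2284 to 5571 CPM in Top1 cKO-Veh and 1404 to 2476 CPM in Top1 cKO-Topot, with a median log2 fold change of −0.92. By edgeR's quasi-likelihood test 0 of the 8 markers were called and 5 were lower at an unadjusted p below 0.05, and with the block 5 were called lower. Gfap had a log2 fold change of −1.43 with the block (edgeR adjusted p = 8.39e-42). Of the 6 progenitor markers 1 was called higher with the block, Nes at 1.28 (edgeR adjusted p = 6.51e-18), and 0 lower. Of the 8 oligodendrocyte lineage markers 2 were called higher with the block and 0 lower. The medians with topotecan were −1.45 in WT and −0.92 in Top1 cKO cells for the astrocyte markers. Those of the 8 genes were −1.66 and 0.60. The part of cell composition in these changes was not tested.

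Among topotecan-treated cells, the genes were higher in Top1 cKO than in WT cells. Compared to WT-Topot, 7 of the 8 were called higher in Top1 cKO-Topot and 0 lower, where 1.46% of all genes were called higher and 1.03% lower. The largest log2 fold changes were those of Nr4a1, 3.99 (SE 0.284, edgeR adjusted p = 8.06e-09), a 15.8-fold difference, and Npas4, 3.15 (SE 0.418, edgeR adjusted p = 3.88e-05). Egr4 followed at 2.77 (SE 0.25), Nr4a2 at 2.46 (SE 0.303), Egr1 at 2.12 (SE 0.223) and Egr3 at 2.07 (SE 0.249). Nr4a3 had the smallest of the called changes, 1.37 (SE 0.288, edgeR adjusted p = 0.00456), and lost the call in 5 alternative fits, among them those without Top1 cKO-Topot replicate 1 (edgeR adjusted p = 0.0156) and without WT-Topot replicate 3 (edgeR adjusted p = 0.0157). Egr2, at 1.88 (SE 0.505, edgeR adjusted p = 0.0272), passed with the block, which called all 8 higher beside 4.6% of all genes. It also passed without Top1 cKO-Topot replicate 3, WT-Topot replicate 1 or WT-Topot replicate 2. The libraries of the 2 groups did not overlap for any of the 8 genes, as for 13.3% of the genes with at least 1 CPM.

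Cell type markers were read in the same comparison. The astrocyte markers summed to 1404 to 2476 CPM in Top1 cKO-Topot and to 835 to 1298 CPM in WT-Topot, without overlap, with a median log2 fold change of 0.47 and 1 of 8 called higher (2 with the block). The interneuron markers summed to 911 to 1329 CPM in Top1 cKO-Topot and to 546 to 991 CPM in WT-Topot, with a median of 0.65 and 1 of 8 called higher (4 with the block). Of the 11 neuronal markers 2 were called higher and 1 lower (2 and 3 with the block), with a median of 0.08, where the median of the 8 genes was 2.29. The part of these markers in the difference was not tested.

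Compared to WT-Veh, which differs in both factors, Top1 cKO-Topot had 0 of 8 genes called by edgeR's quasi-likelihood test or the DESeq2 Wald test. At an unadjusted p below 0.05, 4 were higher, beside 1493 of all 23893 genes. Of all genes 0.473% were called higher and 1.21% lower. With the block 4 were called higher, beside 3.34% of all genes. These were Egr3 at 1.21 (edgeR adjusted p = 6.12e-05), Egr4 at 0.85 (edgeR adjusted p = 3.11e-04), Nr4a1 at 0.65 (edgeR adjusted p = 0.00746) and Nr4a2 at 0.85 (edgeR adjusted p = 0.0019), on the log2 scale. For Egr3, Egr4 and Nr4a2 all 3 Top1 cKO-Topot libraries were above all 3 WT-Veh libraries, as for 12% of the genes with at least 1 CPM. Egr3 was called higher also without WT-Veh replicate 2, WT-Veh replicate 3 or Top1 cKO-Topot replicate 3. Nr4a3 and Npas4 had log2 fold changes of −0.18 (SE 0.307) and −0.40 (SE 0.335), and each changed sign when 1 WT-Veh library was left out.

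The effect of topotecan differed between the genotypes. In a fit of all 12 libraries, the topotecan effect in Top1 cKO cells minus that in WT cells was positive for all 8 genes and was called for 5, with 0 called negative. Of all genes 0.398% were called positive and 0.0377% negative. The difference was 4.17 for Nr4a1 (SE 0.446, edgeR adjusted p = 9.83e-05), 4.11 for Npas4 (SE 0.671, edgeR adjusted p = 0.00292) and 2.58 for Egr4 (SE 0.324, edgeR adjusted p = 3.21e-04), on the log2 scale. It was 2.30 for Nr4a2 (SE 0.416, edgeR adjusted p = 0.00634) and 2.16 for Egr1 (SE 0.39, edgeR adjusted p = 0.00634). Egr2 at 2.09 (SE 0.755, edgeR adjusted p = 0.301), Nr4a3 at 1.97 (SE 0.515, edgeR adjusted p = 0.069) and Egr3 at 1.48 (SE 0.438, edgeR adjusted p = 0.131) did not pass. With the block 7 were called, all but Egr2, beside 2.44% of all genes. The count fell to 2, Egr4 and Nr4a1, with a filter on low counts (0.243% of all genes), and to 3 without WT-Topot replicate 2 (0.511%).

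All 8 genes had their lowest mean in WT-Topot, but their profiles over the 12 libraries differed. Each gene's log2(CPM + 1) was centered on its own mean, and the root mean square difference over the 12 libraries from the mean of the 8 was taken as the distance, in log2 units. Egr1 (0.209) and Egr4 (0.231) were closest to the mean of the group, and Npas4 (0.689) and Nr4a1 (0.651) were farthest. Between members, Egr1 and Egr4 were the closest pair, at 0.335, followed by Egr2 and Nr4a3 at 0.381 and Egr1 and Egr3 at 0.441. The 3 Nr4a receptors were not closest to each other, with distances of 0.791 between Nr4a1 and Nr4a2, 0.809 between Nr4a2 and Nr4a3 and 1.13 between Nr4a1 and Nr4a3. Nr4a1 was closest to Npas4, at 0.57, and these are the 2 genes that fell most with topotecan in WT cells. Egr2 and Npas4 were the most distant pair, at 1.17. Egr2 and Nr4a3 each had replicate 1 as their highest library in all of the groups but WT-Topot for Egr2. These distances describe 12 libraries that share groups and replicate numbers.

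The 8 other genes whose profile was most like the mean of the group, among 9500 other genes that averaged 10 CPM or more, were Dusp4 (0.290), Trib1 (0.312), Dusp1 (0.379), Syt12 (0.392), Ephb1 (0.399), Aff3 (0.400), Junb (0.401) and Arc (0.404), where the median distance of all genes was 0.987. Dusp4 and Dusp1 encode phosphatases that switch off MAP kinases, Trib1 a pseudokinase, Junb a partner of FOS and Arc a regulator of AMPA receptors at the synapse. Dusp4, Dusp1, Junb and Arc belong to the lists examined below, and Trib1, Syt12, Ephb1 and Aff3 to none of them. Dusp4 had 92.1 ± 37.9 CPM in WT-Veh and 25.7 ± 5.56 CPM in WT-Topot (SD, n = 3). Its level was 74.7 ± 24.2 CPM in Top1 cKO-Veh cells and 94.5 ± 28.2 CPM after topotecan in Top1 cKO cells (SD, n = 3). Like each of the 8 genes, it had its lowest mean in WT-Topot, which follows from its choice by likeness to their profile.

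Lists of genes around the members were examined in the same fits. Of 14 cofactors, dimer partners and relatives, 2 fell in WT-Topot against WT-Veh and 0 rose, with a median log2 fold change of −0.24. Both are relatives of Npas4, namely Npas3 (−2.60, SE 0.445, edgeR adjusted p = 8.52e-04) and Npas2 (−1.48, SE 0.296, edgeR adjusted p = 0.00383). With the block Arnt2 fell too, a dimer partner of NPAS4 (−0.66, edgeR adjusted p = 3.28e-06). The Egr corepressors did not pass, with −0.53 (SE 0.2) for Nab1 and −0.21 (SE 0.302) for Nab2. Of 17 upstream factors and coactivators such as CREB and SRF, 0 were called by edgeR, 2 were lower and 2 higher at an unadjusted p below 0.05, and the median was −0.06. With the block 1 fell, Mef2c (−0.62, edgeR adjusted p = 3.29e-07), and 1 rose, the CREB coactivator Crtc1 (0.50, edgeR adjusted p = 0.00936). Of 32 genes for calcium entry and kinases, 6 fell and 0 rose. They included the NMDA receptor subunits Grin2a (−2.70, SE 0.393, edgeR adjusted p = 1.61e-04) and Grin2b (−2.60, SE 0.349, edgeR adjusted p = 6.56e-05) and the L-type calcium channel Cacna1c (−1.96, SE 0.296, edgeR adjusted p = 2.25e-04). The median of this list was −0.29. The lengths of the genes in these lists were not examined. Of all genes over 100 kb, 15.2% were called lower in this comparison, against 0.623% of those of at most 50 kb. With the block 12 fell and 3 rose, beside 5% of all genes lower and 3.24% higher.

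Some genes of the same activity response fell with the members. Of 20 other inducible transcription factors, 6 fell and 0 rose in WT-Topot, with a median of −0.66. Fosb (−3.12, SE 0.416, edgeR adjusted p = 6.24e-05) and Fos (−2.86, SE 0.343, edgeR adjusted p = 1.93e-05), which encode AP-1 subunits, fell most, and Nfil3 fell by 1.36 (SE 0.252, edgeR adjusted p = 0.00198). With the block 8 fell and 1 rose, Jun (0.63, edgeR adjusted p = 5.79e-04). Of 32 activity-regulated effector and target genes, 15 fell (22 with the block) and 0 rose in either fit, with a median of −1.08. The largest changes were those of Ptgs2, which encodes the cyclooxygenase COX-2 (−3.73, SE 0.52, edgeR adjusted p = 9.96e-05), Bdnf, which encodes a neurotrophin (−3.38, SE 0.306, edgeR adjusted p = 8.18e-07), and Cort, which encodes the neuropeptide cortistatin (−3.36, SE 0.607, edgeR adjusted p = 0.00147). Of all genes, as above, 2.04% were called lower, and 5% with the block.

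**Figure D4:**
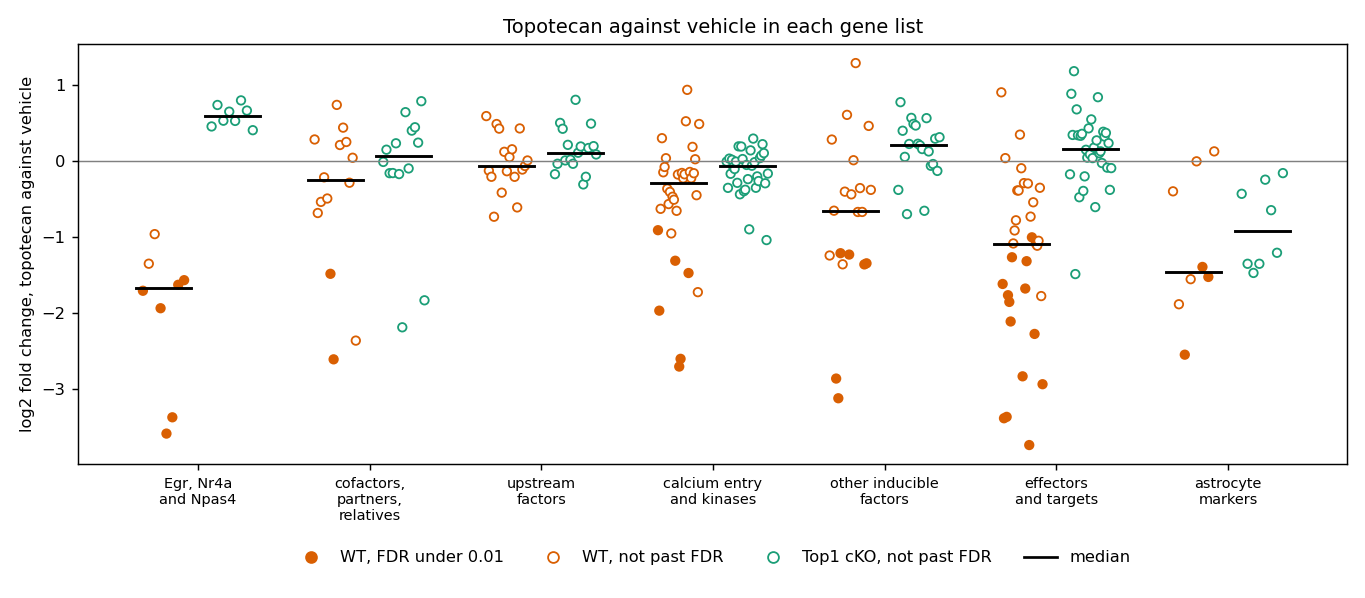
Log2 fold change with topotecan in WT cells (orange) and Top1 cKO cells (green) for the 8 genes, the 5 lists of genes around them and the astrocyte markers, with 1 point per gene and a bar at the median. Filled points passed an FDR of 0.01 without the block. The medians of the 8 genes are −1.66 in WT and 0.60 in Top1 cKO cells, and those of the effector and target genes are −1.08 and 0.17.

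In Top1 cKO-Topot against Top1 cKO-Veh, 0 genes of the 5 lists were called without the block by edgeR, and at an unadjusted p below 0.05 the 20 inducible factors had 2 higher and 0 lower, the 32 effectors 6 higher and 2 lower, and the 32 calcium and kinase genes 0 higher and 5 lower. With the block 3 inducible factors rose, the growth arrest gene Btg2 at 0.73 (edgeR adjusted p = 4.69e-05), the AP-1 subunit Jun at 0.47 (edgeR adjusted p = 0.00291) and Ier5 at 0.39 (edgeR adjusted p = 0.00908), and 0 fell. Among the effectors 5 rose and 1 fell with the block. The largest changes were those of Cdkn1a, a p53 target that encodes a cell cycle inhibitor, at 1.16 (edgeR adjusted p = 4.9e-27), Ptgs2 at 0.81 (edgeR adjusted p = 0.00395) and Arc at 0.78 (edgeR adjusted p = 7.78e-08), and the gene that fell was Penk, which encodes a neuropeptide, at −0.57 (edgeR adjusted p = 5.68e-04). Of the calcium and kinase genes 4 fell with the block and 0 rose, where that fit called 1.74% of all genes lower and 0.858% higher, with Grin2b at −0.85 (edgeR adjusted p = 7.5e-07), Camk4, a kinase of CREB, at −0.43 (edgeR adjusted p = 3.45e-05) and the AMPA receptor subunit Gria1 at −0.40 (edgeR adjusted p = 3.21e-04). Of the cofactors and relatives Npas3 fell, at −2.19 (edgeR adjusted p = 1.77e-09). Npas3 was thus lower with topotecan in both genotypes, and Npas4 was not. The interaction was called positive for 8 of the 32 effectors and 1 of the 20 inducible factors (Fos, 2.91, SE 0.518, edgeR adjusted p = 0.00588), and for 0 genes of the other 3 lists without the block, in which 2, 2 and 8 were positive and 0, 0 and 3 negative at an unadjusted p below 0.05. With the block it was positive for 16 effectors, 8 inducible factors, 6 calcium and kinase genes and 2 cofactors and relatives, and negative for 3 calcium and kinase genes (2.44% of all genes positive and 1.53% negative).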

How the data were processed

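PolyA RNA from 12 cortical cultures was sequenced as paired-end TruSeq libraries. The deposited values are raw counts per gene symbol, which the authors took over RefSeq exons. Behind them, per the methods of the study, is a default TopHat alignment on mm9, with TagDust as read filter and without rRNA genes. The counting program and its use of strand are not given in the sources used here, and the deposited counts carry no normalization or filter.

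Counts were scaled by TMM and tested with edgeR 4.0.16 in R 4.3.3 (glmQLFit with legacy = TRUE and glmQLFTest, no gene filter) on the 6 libraries of a comparison, or on all 12 for the interaction. The threshold was an FDR of 0.01 by Benjamini-Hochberg adjustment over 23893 genes. DESeq2 1.42.0 was an alternative. To check whether replicate numbers pair the cultures, each library's deviation from its group mean was correlated between groups over 13720 genes. The correlation was 0.261 to 0.485 for the 18 pairs with a shared number and −0.384 to −0.0494 for the others. Deviations cancel out within a group, so the negative values follow from the positive ones and are not separate evidence. The pairing rests on the numbers in the labels and on the correlations of shared numbers. Libraries of 1 group differed by more than sampling noise. Scripts were tested on simulated data.

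The named genes were the 8 members, Top1, up to 3 genes per list with the largest change among those called in WT-Topot against WT-Veh (and by the same rule with the block for topotecan in Top1 cKO cells), and the 8 genes nearest in profile. Nab1, Nab2, marker genes and list genes called only with the block were named in addition after their values were seen. The members and lists were chosen with earlier results of these data known. Levels per kb use the exon length of GENCODE vM1, which is not the RefSeq model counted. Intervals are 95% limits of the normal distribution around the log2 fold change, from its SE, so with few libraries they are too narrow. That of Egr3 with deletion alone, 0.0067 to 1.18, lay wholly on the positive side. Its unadjusted p was 0.0653 by edgeR's quasi-likelihood test.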

Additional observations from a re-analysis of the deposited data

Results flagged for a closer look

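The effect of topotecan differed between Top1 cKO and WT cells for 5 of the 8 genes in a test of the difference itself, and each is given here as the log2 fold change with topotecan in Top1 cKO cells minus that in WT cells. The difference was 4.17 for Nr4a1, 4.11 for Npas4, 2.58 for Egr4, 2.30 for Nr4a2 and 2.16 for Egr1 (edgeR's quasi-likelihood test on 12 libraries, adjusted p from 9.83e-05 for Nr4a1 to 0.00634 for Nr4a2 and Egr1). In this test 0.398% of all genes were called positive and 0.0377% negative. The direction was the same in every replicate number for these 5 genes. With a filter on low counts the adjusted p was 0.0118 for Npas4, 0.0141 for Nr4a2 and 0.0183 for Egr1, above the threshold, and the cause was not tested. No group was large enough for a test of single libraries that stand apart.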

How the results depend on the processing

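With the replicate block, Top1 cKO-Veh against WT-Veh gave 1 gene lower and 1 higher (0 without), beside 2.95% and 2.6% of all genes. Top1 cKO-Topot had 5 higher against Top1 cKO-Veh (0 without), beside 0.858% of all genes. Against WT-Veh it had 4 higher (0 without), beside 3.34%. The block changed no other count of the 8 genes by over 1.5 times. Several counts of the gene and marker lists rose by more than that, as given with each list. The interaction was called positive for 2 genes with a filter on low counts, beside 0.243% of all genes. It was also called for 2 with the bias-adjusted deviances of newer edgeR (0.188% of all genes), an alternative chosen after seeing the data. When 1 library was left out it was called for 3 to 5 genes, beside 0.201 to 0.515% of all genes. Against WT-Veh, Top1 cKO-Topot had 0 to 1 genes higher with 1 library left out, beside 0.159 to 1.34% of all genes. It had 2 higher, beside 1.41% of all genes, with all replicates numbered 3, the shallowest of each group, left out. This setting was also chosen after seeing the data. The cause was not tested.

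Signs turned only for changes not called. Egr1 in Top1 cKO-Veh against WT-Veh was 0.043 with the block and −0.29 to 0.40 with 1 library left out, and Egr2 −0.60 to 0.15. In Top1 cKO-Topot, Egr2 was −0.14 to 1.14 against Top1 cKO-Veh and −0.32 to 0.90 against WT-Veh, where Nr4a3 was −0.41 to 0.38 and Npas4 −0.70 to 0.21, with 1 library left out. Of 259 recomputed values of the 18 called changes, 229 stayed past the threshold, 30 did not and 0 changed sign. The list of genes most like the members kept 8 of 8 with a pseudocount of 0.5 and 6 of 8 with genes of at least 1 CPM.

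Egr2 and Npas4, with 4 counts in their lowest library, had SEs of 0.487 and 0.492 in WT-Topot against WT-Veh, where the other 6 genes had 0.265 to 0.349.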
